A study of Danio rerio with 3 samples.

Results

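The retinal cells described here carry transcripts of the AP-2 transcription factors, the family that amacrine cells are known by. They were chosen from their own counts: a cell had to hold at least 3 unique molecular identifiers (UMIs, one per captured mRNA molecule) of tfap2a, tfap2b and tfap2c together, at least 1 UMI of elavl3, an RNA-binding protein gene of neurons, and at most 2 UMIs in total of 6 mitosis genes (cdc20, plk1, ccnb1, nusap1, tpx2, cenpf). Of 26471 cells kept by limits on detected genes and mitochondrial UMIs, 477 met this rule and are called AP-2 members. They numbered 335 of 10430 kept cells in the Lws2-ablation library, 52 of 7851 in the library labelled Sws2-ablation (the Sws2-labelled library) and 90 of 8190 in the no-ablation library. Because these genes chose the cells, their levels are given as a description.

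The study took zebrafish larvae in which one cone type could be killed and asked how Müller glia, the stem-like glia of the fish retina, answer the loss. The Lws2-ablation larvae carried the transgene reporters her4.1:dRFP and gfap:GFP together with lws2:nfsb-mCherry, which drives nitroreductase fused to mCherry in long-wavelength cones. The larvae labelled Sws2-ablation carried both reporters together with sws2:nfsb-mCherry, which drives the same enzyme in short-wavelength cones. The no-ablation larvae carried the reporters alone and had no nitroreductase. All 3 groups, the no-ablation larvae included, stood in 10 mM metronidazole, the prodrug that nitroreductase turns toxic, for 48 h from 6 days post fertilization (dpf), and retinal cells were collected at 9 dpf. The paper's methods give that age for all groups, while a passage of its results gives 6 dpf for the uninjured larvae. According to the paper, cells were sorted for the gfap reporter, which marks glia, and sequenced as 3′ droplet libraries. By that account neurons in these libraries passed the sort, though EGFP was nearly undetected in the Sws2-labelled library, as given below. The paper states that lasting GFP also lets glia-derived progenitors and cells beginning to mature into glia or neurons be followed. Each condition was 1 library. No test between conditions is possible, and every interval covers counting error of cells or UMIs only.

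Amacrine cells are the inhibitory interneurons of the inner retina. They arise from progenitors in which Foxn4 and Ptf1a act, and Ptf1a is known to turn on Tfap2a, Tfap2b and Prdm13. Most mature amacrine cells release GABA or glycine, a few types add acetylcholine or neuropeptides, and horizontal cells, the inhibitory neurons of the outer retina, come from the same Ptf1a lineage and also use AP-2 factors together with onecut factors, Prox1 and Lhx1.

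The libraries held 75131968, 52577782 and 43017721 UMIs in Lws2-ablation, the Sws2-labelled library and no ablation. AP-2 members had a median of 8434, 6961 and 7057.5 UMIs per cell in that order, against 5785, 5019 and 4376.5 UMIs in the other kept cells. Glial RNA was present in many members. At least 5 UMIs of glula, rlbp1a and apoeb together were found in 32.8% of members in Lws2-ablation, 42.3% in the Sws2-labelled library and 83.3% in no ablation. The Müller glia list of 12 genes summed to 2809, 3749 and 25887 CPM (counts per 1000000 UMIs) in members, and to 30687, 26724 and 48852 CPM in glial cells (at least 10 UMIs of glula and rlbp1a, none of elavl3 or of the 3 AP-2 genes). In neurons without AP-2, a group defined below, it summed to 5731, 7651 and 19176 CPM. Of those neurons 33.5%, 47.4% and 65.3% held at least 5 UMIs of glula, rlbp1a and apoeb. The median of these UMIs was 3, 3.5 and 127 in members, 3, 4 and 6 in neurons without AP-2, and 86, 74 and 140 in glial cells. EGFP, the gfap reporter, was at 0 UMIs in the 52 members of the Sws2-labelled library and at 2.23 CPM in its other cells. The gfap reporter, which the study's methods give for this line, was thus nearly undetected in this library. The library's values are given as those of the library so labelled. Barcodes shared between libraries numbered 28, 17 and 29 for the 3 pairs, and no barcode was a member in more than 1 library. Both 10x kit versions 2 and 3 are named for the study without saying which library used which, so kit and condition cannot be told apart.

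Members were a larger share of the Lws2-ablation library than of the other libraries. The share was 3.21% (2.88 to 3.57, 95% exact Clopper-Pearson interval) in Lws2-ablation, 0.662% (0.495 to 0.868) in the Sws2-labelled library and 1.1% (0.885 to 1.35) in no ablation. Lws2-ablation stood 2.11 percentage points above no ablation (1.71 to 2.52), and the Sws2-labelled library differed from no ablation by -0.437 points (-0.732 to -0.147). After thinning each cell to 2000 UMIs and applying the rule again, 143 of 8658 cells (1.65%), 20 of 6259 (0.320%) and 33 of 6894 (0.479%) met it. At that matched depth the interval of the second difference, -0.159 points (-0.382 to 0.0623), included 0. Without the members that held 5 or more glial UMIs the shares were 2.16%, 0.382% and 0.183%, which turned the direction of that difference. The same libraries differed in neurons at large. Neurons without AP-2 had elavl3 and elavl4 each at 1 UMI or more, no UMI of tfap2a, tfap2b or tfap2c, and at most 2 mitosis UMIs. Among members and these neurons together, members made up 26.2% in Lws2-ablation, 34.9% in the Sws2-labelled library and 25.6% in no ablation. How the sort and the libraries' share of neurons bear on the member share was not tested.

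**Figure D1:**
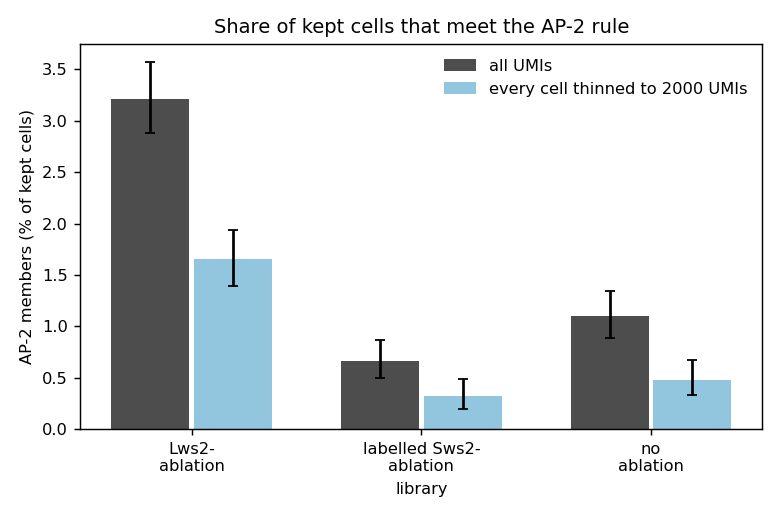
AP-2 members as a percentage of kept cells in Lws2-ablation, the Sws2-labelled library and no ablation, at full depth and after thinning every cell to 2000 UMIs; error bars are 95% exact Clopper-Pearson intervals. At full depth the shares were 3.21%, 0.662% and 1.1%, and after thinning 1.65%, 0.320% and 0.479%.

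The threshold passed through a continuous distribution. The 3 AP-2 genes summed to a median of 9, 7 and 6.5 UMIs per member in Lws2-ablation, the Sws2-labelled library and no ablation, with maxima of 109, 66 and 39. Exactly 3 UMIs were held by 34, 8 and 13 members, and 52, 7 and 30 cells missed the rule with 2 UMIs while meeting its other conditions. Just inside, pax10 was detected in 41.2%, 37.5% and 46.2% of cells, and just outside in 30.8%, 0% and 40.0%. A further 66, 26 and 15 cells with at least 3 AP-2 UMIs were left out for having no elavl3, and 18, 2 and 1 for more than 2 mitosis UMIs.

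Among the AP-2 genes themselves, tfap2a was the most widely detected in each library, with UMIs in 92.2%, 75.0% and 91.1% of members. tfap2b was detected in 75.5%, 57.7% and 72.2% of members and tfap2c in 39.1%, 69.2% and 55.6%. tfap2e, which the rule did not use, stood at 223, 323 and 314 CPM in members of Lws2-ablation, the Sws2-labelled library and no ablation, against 3.03, 0.562 and 3.04 CPM in other kept cells. It ranked first among the genes not used by the rule, with log2 ratios of 5.80, 7.70 and 6.28. It was more often seen with tfap2c, a gene of the rule: 57 of 73, 15 of 18 and 36 of 44 members with tfap2e also had tfap2c. tfap2e was detected in 43.5% of tfap2c-positive members and 7.84% of the rest in Lws2-ablation, 41.7% and 18.8% in the Sws2-labelled library, and 72.0% and 20% in no ablation. isl1, a LIM-homeodomain gene, was split the other way, at 6.11% of tfap2c-positive members and 59.3% of the rest in Lws2-ablation. tfap2d, the remaining family member, was at 8.75, 2.58 and 3.00 CPM in members and higher in neurons without AP-2, at 54.1, 43.7 and 34.7 CPM.

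The label's other markers were only partly particular to the members. pax10, a Pax6-related homeobox gene of fish, was at 348, 222 and 239 CPM in members, against 9.12, 2.17 and 9.94 CPM in other kept cells, and its log2 ratio over neurons without AP-2 was 2.91, 2.87 and 1.49. prdm13, a Ptf1a target in mouse, was at 72.0, 168 and 94.6 CPM in members and at 18.8, 4.77 and 11.5 CPM in other kept cells. Neurons without AP-2 held 72.8, 16.7 and 180 CPM of prdm13, so it did not separate members from those neurons in Lws2-ablation, and in no ablation it was lower in members.

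Across all genes, levels were compared as log2 ratios of CPM with 1 CPM added to both sides, for genes with a mean of at least 20 CPM and at least 20 UMIs, and a gene is called higher or lower when it is at least 2-fold apart. Of the genes tested, 12.4% were higher in members than in other kept cells in Lws2-ablation, 19.4% in the Sws2-labelled library and 13.8% in no ablation, and 14.7%, 12.2% and 4.69% were lower. In all 3 libraries at once, 244 of 3475 genes (7.02%) were higher and 87 (2.5%) lower. Against neurons without AP-2, 2.86%, 5.19% and 3.48% of genes were higher in members and 18.7%, 13.8% and 9.71% were lower. These percentages are the background for the gene groups below.

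Amacrine fate genes were mostly higher in members than in other kept cells. The list summed to 4180, 4589 and 3665 CPM in members and to 3525, 3000 and 3567 CPM in neurons without AP-2. Among the tested genes of that list, 12 of 16 were higher and 2 lower in Lws2-ablation, 16 of 19 were higher in the Sws2-labelled library and 11 of 15 in no ablation, with median log2 ratios of 1.84, 2.54 and 2.01, against medians of 0.16, 0.28 and 0.22 over all tested genes. barhl2, a homeobox gene that acts in amacrine subtype choice in mouse, was at 245 CPM (227 to 263), 196 (155 to 246) and 225 (191 to 264) in members, against 18.3, 6.46 and 9.53 CPM in other kept cells. The 3 intervals overlapped between libraries. bhlhe22, a basic helix-loop-helix factor of amacrine subtypes in mouse, was at 369, 276 and 404 CPM in members, against 60.3, 31.7 and 29.5 CPM. meis2a (ENSDARG00000077840), a TALE homeobox gene, was at 489, 310 and 411 CPM, against 26.4, 4.64 and 24.9 CPM in other kept cells. A second gene row with the same symbol (ENSDARG00000098240) was at 123, 46.5 and 94.6 CPM in members, and how reads between those rows were shared is uncertain.

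Factors of the amacrine progenitor were low. ptf1a was at 8.75, 51.6 and 7.51 CPM in members. foxn4 was at 8.41 CPM in members of Lws2-ablation and 66.0 CPM in its other cells, at 56.8 and 111 CPM in the Sws2-labelled library, and at 6.01 and 31.0 CPM in no ablation. The retinal Pax6 genes, which postmitotic amacrine cells keep, were abundant: pax6a stood at 692, 948 and 671 CPM in members, against 192, 169 and 275 CPM in other kept cells. Of the cell-cycle genes outside the rule, 14 of 14 tested were lower in members in Lws2-ablation, 11 of 11 in the Sws2-labelled library and 2 of 9 in no ablation. The members were chosen for few mitosis UMIs, which bears on that count.

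**Figure D2:**
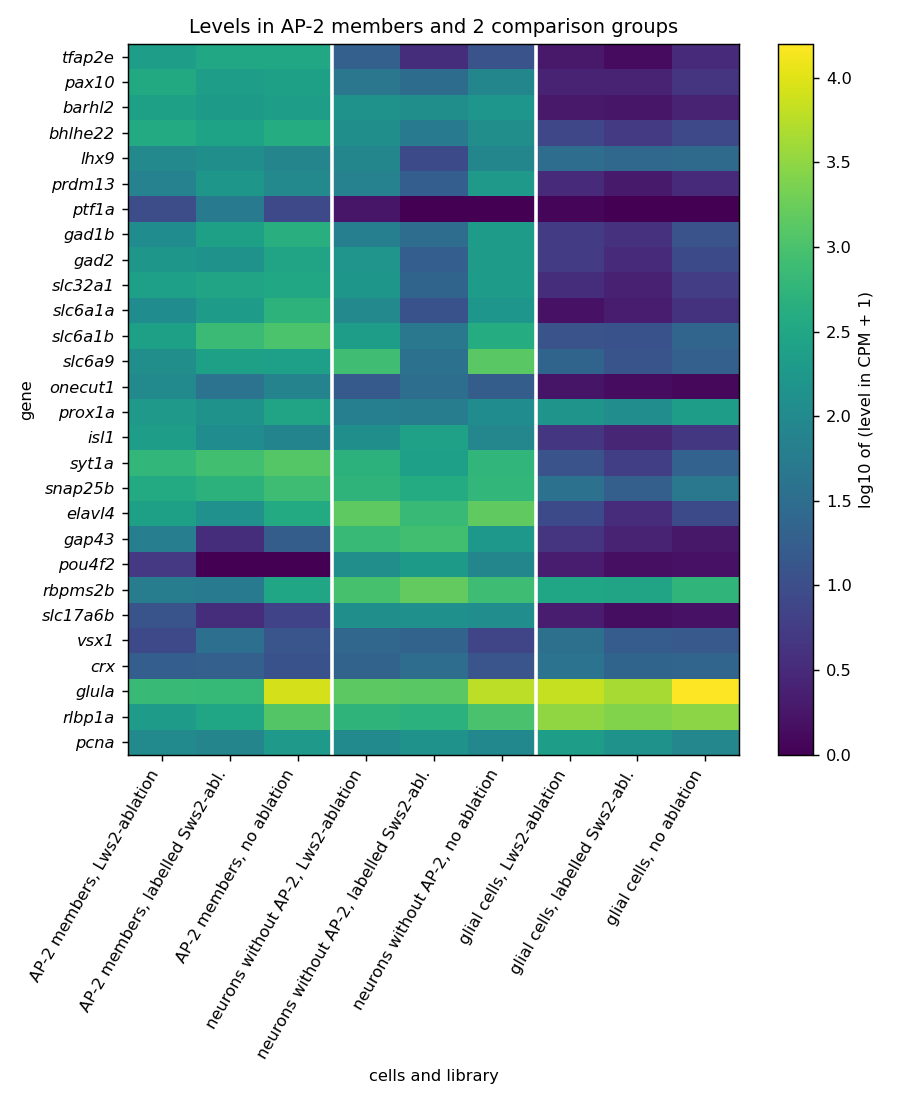
Heat map of levels, as log10 of CPM with 1 CPM added (colour), of genes not used by the rule (rows) in AP-2 members, neurons without AP-2 and glial cells, with columns for Lws2-ablation, the Sws2-labelled library and no ablation in each block. tfap2e and pax10 were brightest in members of every library, the GABA genes were also present in neurons without AP-2, and glula was bright in the members of no ablation.

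Genes for GABA synthesis and transport were higher in members than in other kept cells. Of 6 tested genes, 5 were higher in members than in other kept cells in each library, with median log2 ratios of 3.13, 5.99 and 4.15. gad2, one of the glutamate decarboxylases that make GABA, was at 168, 139 and 287 CPM in members, against 19.9, 3.37 and 21.8 CPM in other kept cells. gad1b, the other decarboxylase, was at 109, 243 and 446 CPM, against 10.1, 3.63 and 23.9 CPM. slc32a1 loads GABA and glycine into vesicles and was the most widely detected of the list, in 70.7%, 63.5% and 77.8% of members, against 1.56%, 0.717% and 2.03% of glial cells, which should lack it and had median depths of 6510, 5625 and 4492 UMIs. The GABA reuptake transporters slc6a1a and slc6a1b were at 109, 201 and 512 CPM and at 240, 720 and 1015 CPM. abat, which breaks GABA down and is also a glial gene, did not reach 2-fold in any library, and gad1a had no UMI in members, which allows up to 1.24 CPM in Lws2-ablation by the Poisson interval.

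A member was counted as GABA-positive at 2 or more UMIs of the gad genes and as glycine-transporter-positive at 2 or more UMIs of slc6a9 and slc6a5. GABA-positive members numbered 115 of 335 (34.3%, 29.3 to 39.7) in Lws2-ablation, 21 of 52 (40.4%, 27.0 to 54.9) in the Sws2-labelled library and 55 of 90 (61.1%, 50.3 to 71.2) in no ablation. Glial cells of the same libraries, a background, gave 0.827%, 0.615% and 1.43%, and neurons without AP-2 gave 15.4%, 5.15% and 19.1%. Those neurons had median depths of 4172, 7533 and 3691.5 UMIs. With cells thinned to 2000 UMIs the shares were 11.4%, 18.8% and 42.5% of members, and 12.0%, 3.30% and 17.0% of neurons without AP-2. At that matched depth the members of Lws2-ablation did not stand above those neurons. Among members with under 5 glial UMIs (225, 30 and 15 cells), the GABA-positive share was 28.4%, 26.7% and 26.7%. That choice also changed the make-up of the members by the groups described below. In no ablation it left out 52 of 57 cells of the pax10 group and 4 of 9 onecut cells. The parts of glial RNA and of group make-up in the difference between libraries were not tested.

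Few members carried the glycine transporters. slc6a9, which clears glycine at amacrine cells and glia, was at 117, 240 and 236 CPM in members, against 815, 36.0 and 1348 CPM in neurons without AP-2. In the Sws2-labelled library 1 cell held 87 UMIs of it. Glycine-transporter-positive members were 5.37% in Lws2-ablation, 5.77% in the Sws2-labelled library and 13.3% in no ablation, against 2.80%, 1.54% and 1.35% of glial cells. Neurons without AP-2 gave 16.2%, 6.19% and 21.0%. Only slc6a9 contributed in any number, since slc6a5, the neuronal glycine transporter, had 5 UMIs in members of Lws2-ablation and 0 in the other libraries. Neither kind of transmitter gene reached 2 UMIs in 211 (63.0%), 29 (55.8%) and 28 (31.1%) members. Both kinds were seen together in 9, 1 and 5.

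**Figure D3:**
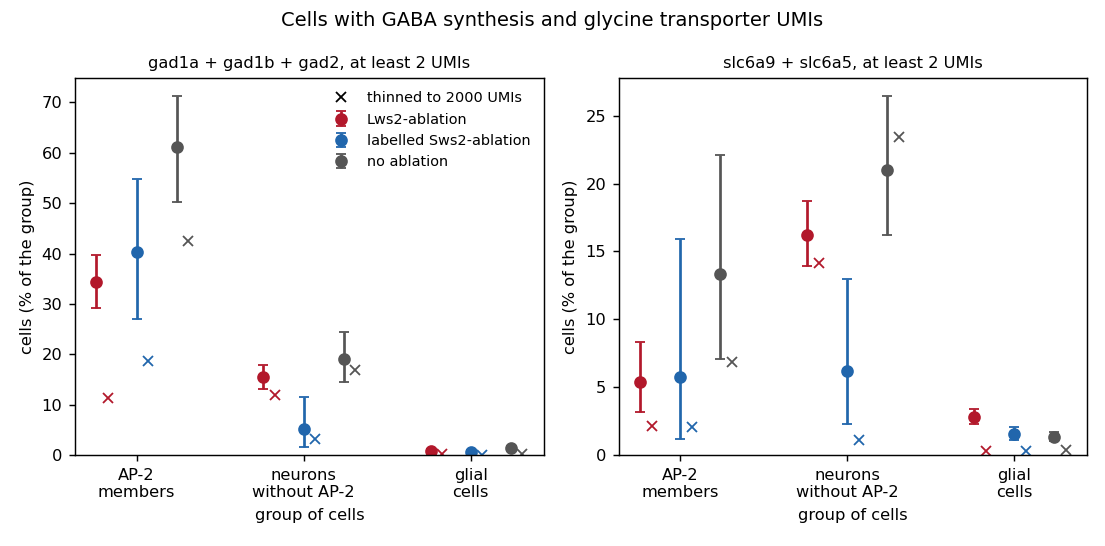
Percentage of cells with at least 2 UMIs of GABA genes or of glycine transporter genes, among AP-2 members, neurons without AP-2 and glial cells of each library; error bars are 95% exact Clopper-Pearson intervals, and crosses give the shares after thinning to 2000 UMIs. GABA genes were seen in 34.3%, 40.4% and 61.1% of members, and glycine transporters in 5.37%, 5.77% and 13.3%.

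Synapse genes were higher in members than in other kept cells, for 13 of 15 tested genes in Lws2-ablation, 11 of 13 in the Sws2-labelled library and 16 of 17 in no ablation. They were not particular to members among neurons. The synapse list summed to 2658, 3297 and 5045 CPM in members and to 4524, 2458 and 4672 CPM in neurons without AP-2. syt1a, the calcium sensor of vesicle release, was at 598, 844 and 1224 CPM, against 78.5, 12.1 and 59.5 CPM in other kept cells. snap25b, a SNARE protein of the same machinery, was at 364, 504 and 793 CPM, against 141, 66.8 and 125 CPM. Of the general neuronal list, 9 of 22, 12 of 16 and 18 of 21 tested genes were higher in members than in other kept cells, and 1, 1 and 0 were lower. The list summed to 6414, 3938 and 6476 CPM in members and to 16817, 14956 and 13221 CPM in neurons without AP-2. elavl4 was at 241, 134 and 372 CPM in members and at 1450, 664 and 1522 CPM in neurons without AP-2, a group chosen for elavl4, so the choice fixed that direction. gap43, a growth-cone protein, was at 60.9, 2.58 and 16.5 CPM in members and at 684, 845 and 173 CPM in neurons without AP-2.

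Markers of other retinal types differed in how far they were from the other kept cells. All tested photoreceptor genes were lower in members than in other kept cells in Lws2-ablation (9 of 9) and in the Sws2-labelled library (7 of 7), as were 9 of 10 in no ablation. Of the ganglion cell list, 3 of 4 tested genes were lower in members in Lws2-ablation and 3 of 3 in the Sws2-labelled library. In no ablation 1 of 4 was higher and 1 lower, and the list summed to 887 CPM in members and 1081 CPM in other kept cells. The ganglion cell gene rbpms2b was at 57.9, 51.6 and 288 CPM in members, against 960, 1541 and 777 CPM in neurons without AP-2. islr2, a leucine-rich repeat membrane protein gene, was at 139, 5.16 and 318 CPM in members and at 1815, 533 and 4140 CPM in neurons without AP-2. In no ablation 5 members held all of its UMIs. Of the Müller glia list, 9 of 10 tested genes were lower in members in Lws2-ablation and in the Sws2-labelled library, but 0 of 11 in no ablation. Immediate-early genes moved with the glial genes, at 9 of 9, 7 of 9 and 0 of 9 lower.

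The 25 genes with the highest member ratio in the library where each was lowest, outside the rule, were led by tfap2e, pvalb6, pax10, tnc and meis2a. Their other members included 5 GABA genes (gad1b, slc6a1a, slc32a1, gad2, slc6a1b), the splicing factors rbfox1 and rbfox2, and the transcription factors barhl2, bhlhe22 and zfhx3. pvalb6, a calcium-binding parvalbumin, was at 450, 232 and 362 CPM in members, against 13.6, 3.76 and 13.2 CPM in other kept cells, yet only 62, 8 and 19 members had a UMI of it. tnc, the matrix protein tenascin C, was at 418, 150 and 79.6 CPM, against 16.9, 6.25 and 3.78 CPM. rem1, a small GTPase gene, was at 157, 77.5 and 97.6 CPM and was detected in 55, 4 and 6 members. Several leading genes were thus carried by a minority of the cells.

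The members were therefore divided further. The division used onecut, sox2, isl1, pax10, tfap2c and tfap2e and was chosen after these values had been seen, so the groups are a description. The onecut group held at least 2 UMIs of onecut1, onecut2 and onecutl together (71, 8 and 9 cells). Of the others, cells with both sox2 and isl1 formed the sox2 and isl1 group (71, 5 and 6), those with at least 2 UMIs of pax10, tfap2c and tfap2e formed the pax10 group (158, 35 and 57), and 35, 4 and 18 cells remained. The onecut group was 21.2%, 15.4% and 10.0% of members, and the pax10 group 47.2%, 67.3% and 63.3%.

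The onecut cells carried horizontal cell genes, against the label of amacrine cells. prox1a, a homeobox gene of horizontal cells in mouse and fish, was at 582, 314 and 976 CPM in them, detected in 60 of 71, 4 of 8 and 6 of 9 cells. It was at 64.7, 61.1 and 163 CPM in the pax10 group, and glial cells held 149, 114 and 221 CPM. The 9-gene horizontal list summed to 1275, 686 and 1637 CPM in the onecut group and to no more than 324 CPM in the other groups. It includes the onecut genes that defined the group, so the division fixed part of that contrast. lhx1a was seen in 5, 0 and 3 of the onecut cells. The horizontal cell connexins were near 0: cx52.9 had UMIs in 3, 0 and 0 of the onecut cells, cx52.7 in 2, 1 and 0 and cx52.6 in none. rem1 stood at 614, 337 and 729 CPM, and 3 pax10-group cells in all held a UMI of it.

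The same cells held a phototransduction subunit and few GABA genes. pde6gb was at 6346, 4966 and 10832 CPM in the onecut group, in 66 of 71, 4 of 8 and 8 of 9 cells, against 174, 195 and 104 CPM in the pax10 group. GABA-positive cells were 5.63%, 12.5% and 11.1% of the group, and slc6a1b was at 2.73, 0 and 0 CPM. The Müller glia list summed to 1218, 779 and 796 CPM in it, while in the other 3 groups of the no-ablation library it summed to 26309 to 31648 CPM. At least 5 glial UMIs were held by 23.9%, 50% and 44.4% of the onecut cells. The replication factor pcna was at 293, 34.9 and 1110 CPM, in 18, 3 and 4 cells, against 36.1, 99.3 and 38.5 CPM in the pax10 group. Without the onecut cells, rem1 and si:ch211-56a11.2 were no longer higher in members in all 3 libraries.

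The sox2 and isl1 cells held cholinergic genes. slc18a3a, the vesicular acetylcholine transporter, was at 133, 383 and 642 CPM, in 23 of 71, 4 of 5 and 6 of 6 cells, and at 7.49, 0 and 0 CPM in the pax10 group. chata, choline acetyltransferase, was at 25.6, 192 and 169 CPM, in 12, 2 and 3 cells. megf10, a receptor that spaces starburst amacrine cells in mouse, was found in 12 cells of Lws2-ablation, and in no cell of the group in the other libraries (5 and 6 cells). pvalb6 was at 2072, 3688 and 6120 CPM in this group, against 123, 49.6 and 131 CPM in the pax10 group. gad1b was at 162, 623 and 981 CPM while gad2 was at 73.0, 0 and 0 CPM. The 0 values come from 5 and 6 cells and do not show absence. In the 5 cells of the Sws2-labelled library 0 UMIs allows up to 177 CPM by the Poisson interval. GABA-positive cells were 40.8%, 60% and 83.3% of the group.

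Some genes named as bipolar markers were also highest there. grm6b, a metabotropic glutamate receptor of the type ON bipolar cells use, was at 363, 527 and 947 CPM, in 55 of 71, 4 of 5 and 6 of 6 cells, and at 1.36, 3.82 and 18.1 CPM in the pax10 group. gng13b, a G protein gamma subunit, was at 2719, 2347 and 981 CPM, against 15.0, 11.5 and 15.9 CPM. Defining bipolar genes were near 0 there, since vsx1 was detected in 1, 0 and 0 cells and trpm1a in none. The 14-gene bipolar list, which these genes belong to, summed to 3152, 3018 and 2164 CPM in the sox2 and isl1 group. It summed to between 130 and 449 CPM in the other groups. Most of the sums in the sox2 and isl1 group came from gng13b and grm6b, so they add little beyond those genes.

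The pax10 group was the largest of the 4 groups. The amacrine fate list, which includes pax10, summed to 5634, 4640 and 3793 CPM in it, and to 3874, 11061 and 4493 CPM in the cells that remained. meis2a (ENSDARG00000077840) was at 951, 447 and 469 CPM in the pax10 group, in 118 of 158, 24 of 35 and 38 of 57 cells. lhx9, a LIM-homeodomain gene, was at 179, 183 and 106 CPM and was detected in at most 3 cells of any other group. lmo4b, a LIM-only cofactor, was at 499, 432 and 276 CPM, against 23.7, 47.9 and 0 CPM in the sox2 and isl1 group. gad2 was at 238, 202 and 401 CPM, and 44.9%, 48.6% and 77.2% of the cells were GABA-positive. Among the remaining cells, neurod1, a bHLH gene of newly formed neurons, reached 697, 5504 and 1256 CPM, from 12 of 35, 3 of 4 and 8 of 18 cells.

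**Figure D4:**
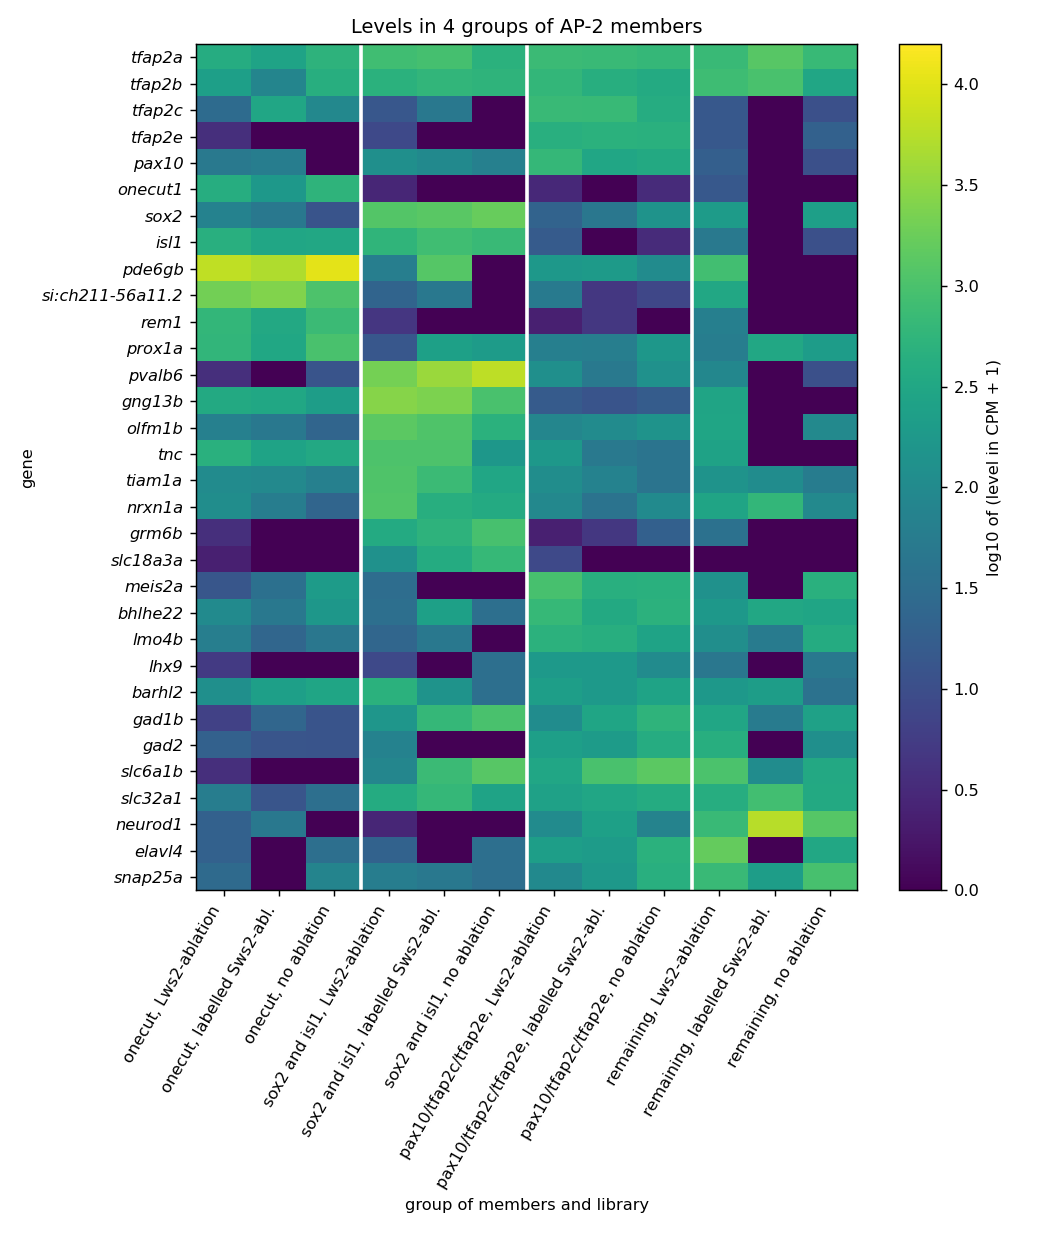
Levels, as log10 of CPM with 1 CPM added, of selected genes in the 4 groups of AP-2 members of each library, with columns for the 3 libraries within each group, groups defined after the values were seen. Horizontal cell genes and pde6gb fell in the onecut group, cholinergic genes, pvalb6 and grm6b in the sox2 and isl1 group, and meis2a, lhx9 and lmo4b in the pax10 group.

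The gfap reporter itself was carried by members. EGFP was at 2216 and 1183 CPM in members of Lws2-ablation and no ablation, against 675 and 1088 CPM in other kept cells. Onecut cells held 2310 and 2557 CPM, more than the 1174 and 1357 CPM of glial cells in those libraries. The pax10 group held 2750 and 1094 CPM, above the onecut cells in Lws2-ablation. The sox2 and isl1 group held 1263 and 981 CPM, and the remaining cells 733 and 453 CPM. RFP, from the her4.1 line, was at 275, 1242 and 1555 CPM in members, against 2381, 3323 and 2511 CPM in other kept cells. It was lower in members of Lws2-ablation and the Sws2-labelled library, and did not reach 2-fold in no ablation. EGFP was detected in 77.3% and 73.3% of members, against 27.2% and 33.6% of neurons without AP-2.

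Between libraries, more genes were lower than higher in members of either ablation library relative to no ablation. Of the tested genes, 7.14% were higher and 21.9% lower in Lws2-ablation than in no ablation, 5.34% and 24.1% in the Sws2-labelled library than in no ablation, and 6.86% and 4.93% in Lws2-ablation than in the Sws2-labelled library. The median gene stood at -0.19, -0.32 and 0.10 on the log2 scale. Centring on those medians took the share of calls that were higher to 38.8%, 43.1% and 46.9%, against 24.5%, 18.1% and 58.2% without centring. The 2 comparisons with no ablation tested 4680 and 4588 genes. Among members with under 5 glial UMIs, 422 of 3986 tested genes were higher and 550 lower in Lws2-ablation than in no ablation. In the Sws2-labelled library 157 of 1568 tested genes were higher than in no ablation and 158 lower. With the members thinned to 1000 UMIs the counts were 414 and 436 of 2437 tested genes, and 92 and 207 of 919. The comparisons of either ablation library with no ablation share the no-ablation library.

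Müller glia and immediate-early genes were among those lower. In Lws2-ablation 10 of 10 tested Müller glia genes, and in the Sws2-labelled library 11 of 11, were lower in members than in no ablation, as were 9 of 9 and 8 of 9 immediate-early genes. cyp26a1, a retinoic acid-degrading enzyme, was at 17.8 CPM in Lws2-ablation, 0 CPM in the Sws2-labelled library and 773 CPM in no ablation, where 35 of 90 cells held it. Among members with under 5 glial UMIs, cyp26a1 was at 5.45, 0 and 0 CPM. mych, a Myc-family gene, was at 10.4, 25.8 and 413 CPM in all members and at 6.53, 13.6 and 0 CPM in those with little glial RNA. In no ablation those were 15 cells with a median of 5467 UMIs, so 0 CPM there does not show absence.

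GABA genes were lower in Lws2-ablation than in no ablation for 4 of 6 tested genes (median log2 -1.58) and in the Sws2-labelled library for 2 of 6 (median -0.84), beside 21.9% and 24.1% of all tested genes. The second count is near that background. gad1b differed by -2.02 (-2.25 to -1.79), slc6a1a by -2.22 (-2.44 to -2.0) and slc6a1b by -2.07 (-2.23 to -1.92) between Lws2-ablation and no ablation. In neurons without AP-2 the same ratios were -1.66, -0.77 and -0.83. Among members with under 5 glial UMIs, of which no ablation had 15, gad1b was at 70.8 CPM in Lws2-ablation and 88.4 CPM in no ablation. slc6a1b was at 108 and 88.4 CPM in the same cells, and slc6a1a at 68.6 and 177 CPM. The no-ablation values rest on 15 cells with a median of 5467 UMIs, so on few UMIs of each gene, and carry no interval. The parts of glial RNA and of group make-up in these differences were not tested.

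Neuropeptide genes in members of the no-ablation library came from few cells. Of 26 peptide genes in the matrices, 7 were tested in each comparison with no ablation. All 7 were lower in the ablation library, beside 21.9% and 24.1% of all tested genes. Genes could pass the level filter through no ablation alone, which bears on that direction. Between Lws2-ablation and the Sws2-labelled library 1 peptide gene was tested. The 106 UMIs of pyya, a peptide YY gene, lay in 1 no-ablation cell, and 98 of the 99 UMIs of cart2 in another single cell. vip was at 2.02, 2.58 and 138 CPM, the last from 4 cells with at most 39 UMIs each. tac3a, a tachykinin gene, was at 19.5, 0 and 147 CPM, from 2, 0 and 3 cells. These values describe those cells rather than a level shared by the members. cart3 was at 81.4 CPM in Lws2-ablation, from 7 of 335 cells of which 1 held 160 UMIs, and at 180 CPM in no ablation, from 11 of 90 cells.

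Genes higher in Lws2-ablation included gng13b and tnc. gng13b was at 617 CPM in Lws2-ablation and 82.6 CPM in no ablation (log2 2.89, 2.50 to 3.30), and tnc at 418 and 79.6 CPM (2.38, 1.98 to 2.80). The sox2 and isl1 group was 21.2% of members in Lws2-ablation and 6.67% in no ablation. Within that group gng13b was at 2719 CPM in Lws2-ablation and 981 CPM in no ablation, and tnc at 1071 CPM in Lws2-ablation and 169 CPM in no ablation. In the pax10 group alone the gng13b log2 ratio was -0.077, while tnc was at 173 CPM in Lws2-ablation and 40.8 CPM in no ablation. ppp1r14c, a phosphatase inhibitor gene, had the highest ratio at 3.15 (2.65 to 3.69), with 1.37 in glial cells and 1.98 in neurons without AP-2.

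Genes far apart between the Sws2-labelled library and another library included the following. EGFP and cyp26a1, both at 0 UMIs in its members, had the lowest ratios to no ablation, at -10.2 and -9.60 on the log2 scale. FO704772.2, zgc:158463, CT027638.1 and rpl26 were higher than in no ablation in members, in glial cells and in neurons without AP-2 alike, with log2 ratios in members of 6.46, 4.37, 3.94 and 3.19 and in glial cells of 6.66, 4.36, 3.97 and 2.87. The Notch target her15.2 was lowest in members of Lws2-ablation, at 281 CPM, against 1580 CPM in the Sws2-labelled library and 1030 CPM in no ablation. Its log2 ratio for Lws2-ablation over the Sws2-labelled library was -2.49 (-2.64 to -2.33) in members. It was -0.75 in neurons without AP-2 and 0.05 in glial cells. her4.1 and her4.2 moved with it, but they belong to near-identical copies whose counts may be split. In members of the Sws2-labelled library hes2.2 had 42 of its 43 UMIs in 1 cell.

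**Figure D5:**
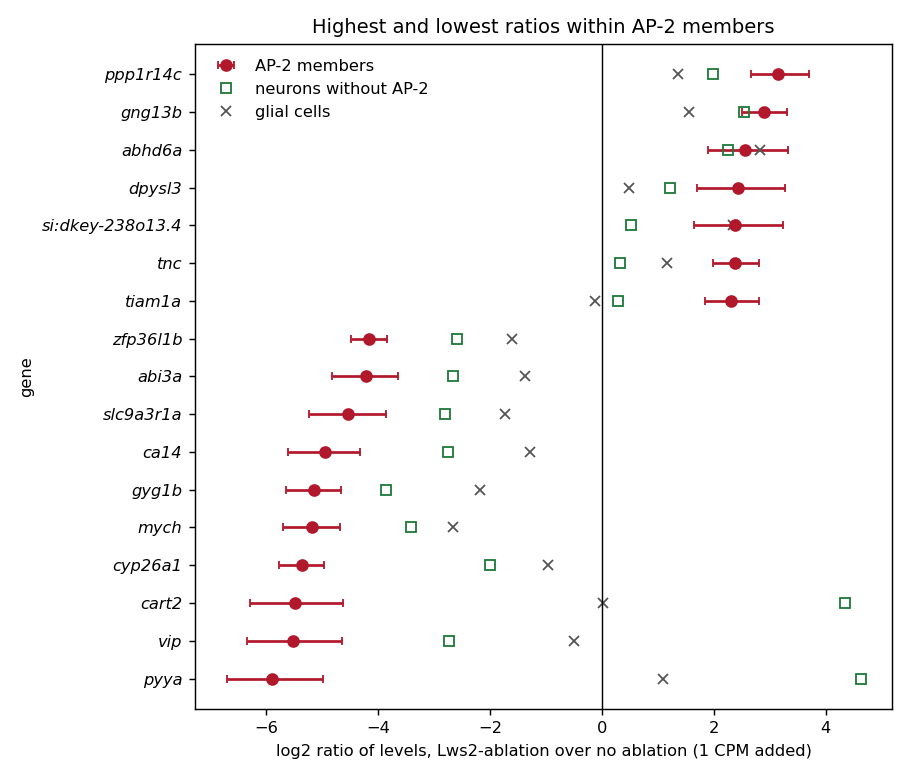
Log2 ratios of levels in AP-2 members, Lws2-ablation over no ablation, with 1 CPM added, for the genes averaging at least 60 CPM among the 10 highest and 10 lowest ratios; error bars are 95% exact intervals for the ratio of 2 counts, and open squares and crosses give the same ratio in neurons without AP-2 and in glial cells. ppp1r14c was highest at 3.15 and pyya lowest at -5.90, and mych, gyg1b and ca14 were also lower in both comparison groups.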

How the data were processed

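Processed matrices of 1 larval zebrafish retina library per condition were read. The deposited values are UMI counts per gene and barcode, which the authors made with Cell Ranger (version 2.1.1 in the submitters' processing notes, 3.0.2 in the matrix header) on GRCz11. Kept cells had 200 to 4500, 4000 or 3500 genes and at most 35%, 30% or 20% mitochondrial UMIs in Lws2-ablation, the Sws2-labelled library and no ablation, as the study's methods set them. No per-sample column was left unused (0).

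The members, gene lists and comparison groups were chosen with earlier results of these data known. Counts were summed over cells of a library and group, scaled to CPM and compared as log2 ratios with 1 CPM added. Intervals are 95% exact Poisson intervals for levels, exact intervals for the ratio of 2 counts carried to the same log2 scale, and exact Clopper-Pearson intervals for shares, and they cover counting error only. The ratio and interval code was checked on simulated data. Cells are not replicates, so no test was run and no p-value given. Named genes were the detected genes of the lists, the 25 highest member ratios ranked by the lowest library (at least 50 CPM in members), and the 10 highest and 10 lowest ratios of each pair of libraries. Genes used to divide the members, and those named within the divided groups, were chosen after their values were seen. Of 375 listed genes, 356 matched a gene row, and the others were not analysed here. Promoter motifs were not analysed here. Some genes that the rule selects are not reported here.

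Doublets were not removed. Scrublet in scanpy called 139, 0 and 3 cells by its automatic threshold, which is too few in 2 libraries for the caller to have worked. The 870, 493 and 537 cells with the highest scores, among them 43, 8 and 15 members, were therefore left out as an alternative. They were 12.8%, 15.4% and 16.7% of members, against 8.34%, 6.28% and 6.56% of all kept cells. Other alternatives changed the AP-2 threshold, the elavl3 condition, the cell filters, depth (thinning), members with glial UMIs, the comparison group, the added CPM, the minimum CPM, centring and the mean over cells. Leaving out the onecut cells and keeping the pax10 group alone were added after seeing the data. Tools were scanpy 1.11.5, scipy 1.17.1, matplotlib 3.10.9, pandas 2.3.3 and numpy 2.4.6 under Python 3.11.15.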

Additional observations from a re-analysis of the deposited data

Results flagged for a closer look

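Some genes were at least 2-fold higher in AP-2 members than in other kept cells in one library and at least 2-fold lower in another. The difference between libraries was not tested in any of them, since each condition was 1 library. neurod1, a bHLH gene of newly formed neurons, had a log2 ratio of -1.24 in Lws2-ablation and 1.44 in the Sws2-labelled library. In that library the 4 cells outside the named groups held 5504 CPM of it. nr2f1a, an orphan nuclear receptor gene, had ratios of -1.14 in Lws2-ablation and 1.18 in the Sws2-labelled library.

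The neuropeptide gene pyya had a ratio of -4.14 in Lws2-ablation and 6.34 in no ablation, where 1 member held all of its UMIs. adcyap1b, which encodes the peptide PACAP, had -1.50 in Lws2-ablation and 1.75 in no ablation, where 3 members held it. sipa1l2 had -1.57 in Lws2-ablation and 1.26 in no ablation. ifi45 had -3.19 in Lws2-ablation, -2.56 in the Sws2-labelled library and 1.57 in no ablation. atp1a3b, a sodium-potassium pump subunit, had -2.15 in Lws2-ablation, 1.1 in the Sws2-labelled library and 1.59 in no ablation. sox13 went the other way, with 1.15 in Lws2-ablation and -1.16 in no ablation.

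Outside the cell filters, 1 barcode in Lws2-ablation, 0 in the Sws2-labelled library and 5 in no ablation met the UMI conditions of the rule. They entered no comparison.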

How the results depend on the processing

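No paired analysis was possible because each condition was 1 library, and for the same reason no replicate could be left out. Member shares changed with the rule. In Lws2-ablation, the Sws2-labelled library and no ablation they were 1.65%, 0.320% and 0.479% when the rule was applied to cells thinned to 2000 UMIs, 0.629%, 0.138% and 0.205% at 1000 UMIs, and 2.16%, 0.382% and 0.183% without members holding 5 or more glial UMIs, which leaves no ablation lowest. In Lws2-ablation and no ablation they were 3.71% and 1.47% at 2 AP-2 UMIs and 2.62% and 0.806% at 5. Without the elavl3 condition they were 3.70% in Lws2-ablation and 0.930% in the Sws2-labelled library, and without onecut cells 2.53% in Lws2-ablation.

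GABA-positive shares of the members chosen at full depth were 11.4%, 18.8% and 42.5% at 2000 UMIs and 6.91%, 15.4% and 17.8% at 1000 UMIs. They were 28.4%, 26.7% and 26.7% among the 225, 30 and 15 members with under 5 glial UMIs. In Lws2-ablation the share was 51.6% at 1 UMI, 42.0% without onecut cells and 44.9% in the pax10 group alone, where no ablation had 77.2%. Glycine transporter shares in Lws2-ablation and no ablation were 2.15% and 6.90% at 2000 UMIs and 2.70% and 5.56% at 1000 UMIs. They were 3.11% and 6.67% without members holding 5 or more glial UMIs. In Lws2-ablation that share was 11.3% at 1 UMI and 2.05% without the highest doublet scores.

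The number of genes tested changed with the setting. With the settings used above, genes higher in members numbered 539, 761 and 664 in the 3 libraries and 244 in all of them. With neurons without AP-2 as the comparison they numbered 135, 220 and 185, and 29 in all 3. With no minimum CPM they numbered 1279, 2412, 2179 and 605. In the Sws2-labelled library and no ablation they numbered 1207 and 997 at 2000 UMIs and 1500 and 1192 at 1000 UMIs. They numbered 1332 in no ablation without members holding glial UMIs, and 474 in the Sws2-labelled library after centring. Genes 2-fold apart between Lws2-ablation and no ablation numbered 1361 of 4680 tested with the settings used above. They numbered 2609 of 8429 with no minimum CPM and 850 of 2437 at 1000 UMIs. Between the Sws2-labelled library and no ablation they numbered 315 without members holding glial UMIs, 557 at 2000 UMIs and 299 at 1000 UMIs. Between Lws2-ablation and the Sws2-labelled library they numbered 481 of 4081 with those settings and 291 of 4081 with 10 CPM added. They numbered 789 of 4334 with a mean of CPM over cells. With no minimum CPM they numbered 1594 of 7869, and at 2000 UMIs 815 of 3431. The cause of these shifts was not tested.

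Over other kept cells, 1271 alternative values of named genes kept their direction and side of 2-fold, 30 fell short of it, 4 passed it, 3 moved and 21 turned. Between libraries 775 kept both, 12 fell short and 2 turned. Against neurons without AP-2 the log2 ratio turned to -0.021 for atp2b3a and -0.016 for prdm13 in Lws2-ablation. In the Sws2-labelled library it turned to -0.86 for nrxn1a, -0.052 for rbfox1, -0.26 for rbfox2 and -1.40 for zfhx3. In no ablation it turned to -0.30 for flrt3, -0.090 for meis2a (ENSDARG00000077840), -0.97 for nrxn1a, -0.50 for pcbp3, -0.92 for prdm13, -0.25 for rbfox2, -2.51 for slc6a9 and -0.76 for zfhx3. Without onecut cells, an alternative chosen after seeing the data, it turned to -1.18, -2.06 and -0.22 for onecut1, to -0.29 and -1.06 for rem1 in Lws2-ablation and no ablation, and to -1.31 for si:ch211-56a11.2 in the Sws2-labelled library. The cells left out were chosen by their onecut UMIs, so that choice fixed the fall of onecut1, though its values are counted among those that turned. Without members holding glial UMIs rbfox1 turned to -0.71 in no ablation. Between libraries, ptgdsb.1 in Lws2-ablation over the Sws2-labelled library turned to -0.21 without the elavl3 condition, and gng13b in Lws2-ablation over no ablation to -0.077 in the pax10 group alone. Gene values under thinning keep the members chosen at full depth, and a named gene with under 20 UMIs gave no value.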
